A study of Caenorhabditis elegans with 2 samples.

Results

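Small nuclear RNA (snRNA) genes were examined as places of recovery of tagged REF-1 in Caenorhabditis elegans embryos. The members were all 129 genes that the Ensembl release 115 annotation of assembly WBcel235 (ce11) gives the biotype snRNA on the nuclear chromosomes, out of 46890 annotated genes in all. Each gene was extended by 100 bp on each side, and a peak was assigned to it by its summit, the position of highest enrichment as deposited. The data came from chromatin immunoprecipitation followed by sequencing (ChIP-seq), in which DNA bound to a protein is recovered with an antibody and located on the genome. The material was 2 biological replicates of whole midembryos at 3 hours, obtained by bleaching for eggs, of strain RW12224. Its endogenous ref-1 gene on chromosome II carries an inserted TY1, EGFP and 3xFLAG tag (allele st12224), made by CRISPR. An antibody to GFP was used, and the DNA had been sonicated to between 200 and 800 bp. Both replicates belong to 1 group, every animal carried the tag, and no untagged sample or input library was analysed here. The values therefore give no contrast between conditions, and the peaks of whole embryos do not separate cell types. Sequencing depth is unknown.

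REF-1 belongs to a nematode family related to HES proteins, with a pair of basic helix-loop-helix domains that bind DNA. The snRNAs are short non-coding RNAs of the spliceosome, the complex that removes introns. U1 pairs with the 5′ splice site, U2 with the branch point, U6 and U5 act at the splice sites during catalysis, and U4 holds U6 inactive until the complex is activated. In nematodes, the spliced leader RNAs SL1 and SL2 donate a short leader exon to the 5′ end of many mRNAs by trans-splicing, SL2 chiefly to downstream genes of operons, and the SmY RNAs take part in that reaction. Transcription of these genes depends on a proximal sequence element upstream of the start that is recognised by the SNAPc complex. RNA polymerase II transcribes most of them, and RNA polymerase III transcribes U6, whose promoter also carries a TATA box.

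The thresholded conservative peak set of the replicate pair placed 11 summits at 11 of the 129 snRNA genes. That was 8.53% of the genes (exact 95% Clopper-Pearson interval 4.33% to 14.7%, counting error only), against 1.79% of all 46890 annotated genes. Among the 22240 genes of other kinds that were no longer than the longest snRNA gene (187 bp), the share was 0.859%. This sets only an upper limit of length, and lengths below it were not matched. Other small RNA genes had a higher share than the snRNA genes, at 36.1% of 612 tRNA genes and 14.7% of 346 snoRNA genes. The snRNA summits made up 1.63% of the 675 peaks of the set, where 32.3% lay at tRNA genes and 7.41% at snoRNA genes. No snRNA summit lay within 100 bp of a tRNA or snoRNA gene, and the called snRNA genes were between 1998 and 206660 bp from the nearest one. The deposited signal, the authors' own value per peak on a scale that is not stated, had a median of 108.2 over the 11 snRNA summits (range 39.1 to 284.7). The median was 144 over the summits at tRNA genes, 261.4 over those at snoRNA genes and 102.3 over the whole set, and 6 of the 11 snRNA summits were above that last value.

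By class, the called genes were 4 of 24 U6 genes (16.7%, exact interval 4.74% to 37.4%), 3 of 13 U1 genes (23.1%, 5.04% to 53.8%), 1 of 5 U4 genes (0.505% to 71.6%) and 2 of 18 SL2 genes (11.1%, 1.38% to 34.7%). No summit was placed at the 20 U2 genes, where the exact interval reaches 16.8%, or at the 12 U5 and the 12 SL1 genes, where it reaches 26.5% for each. None was placed at the 10 SmY genes, where it reaches 30.8%. The SL1 genes are sets of 10 and 2 identical copies, of almost wholly repeated sequence, so their interval says little of the class. The remaining 15 genes of the biotype could not be put in a class, and 1 of them was called. It is mir-1831 (WBGene00077724), annotated inside the U1 gene sup-39 and reached by a summit of that gene, so the calls stand for 10 separate places. The intervals of the classes overlap widely, and gene copies are not replicates, so no difference between classes was tested. U6 led the classes in signal, with the 3 strongest snRNA summits of the set.

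A candidate, as used from here on, is an entry of the ranked list between replicates, which holds weak peaks too and to which no threshold was applied.

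**Figure D1:**
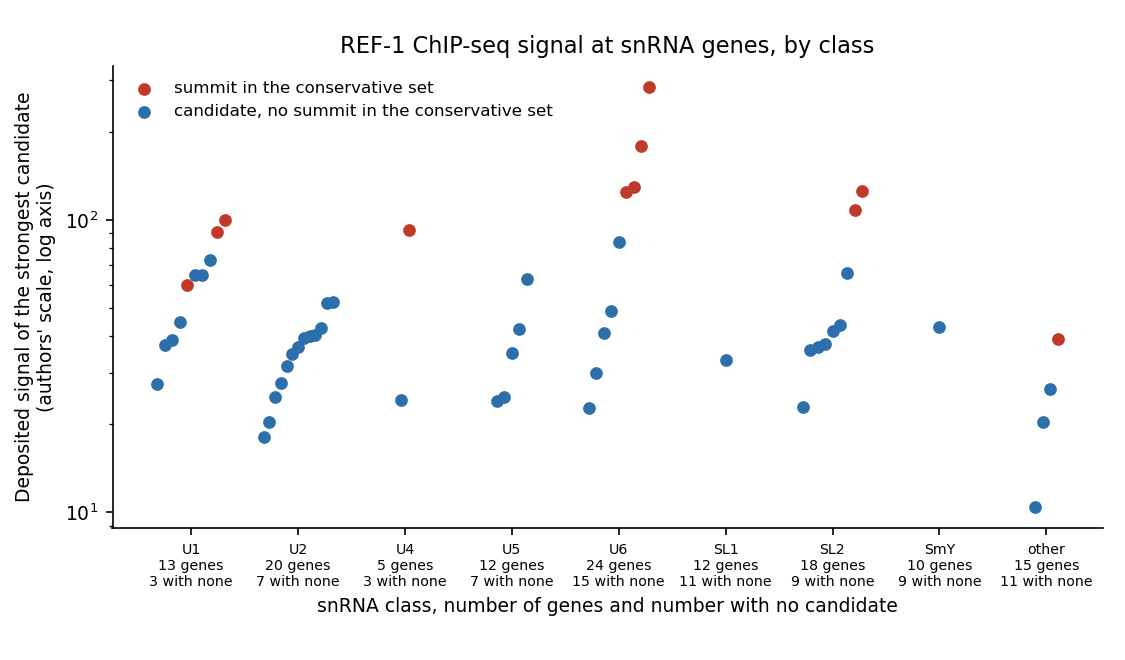
Deposited signal of the strongest candidate peak at each snRNA gene (authors' scale, log axis) by class, in the ranked list between replicates. Each point is 1 gene, red where it had a summit in the conservative set and blue where it had only a candidate, and the labels give the number of genes and of genes with no candidate. The 4 red U6 points, from 124.5 to 284.7, include the highest of all classes, and U2, U5, SL1 and SmY hold no red point.

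U6 showed the clearest difference between copies of 1 gene. The annotation gives the name R07E5.16 to 14 genes with exactly the same 102-base sequence, so they are told apart here by their WormBase identifiers. Every stretch of 36 bases in that sequence occurs more than once in the genome.

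The 100 bases upstream differ between these copies. They are given next for the 5 U6 genes with a summit in any of the 4 thresholded sets, followed by 3 that had none. The uncalled ones were chosen after their values were seen, and WBGene00014392 among them had a candidate at 48.8. Capitals mark 3 short elements read on the gene strand, chosen after values were seen, which are AACCCG, the element GTCTGC, and the TATA box TATATAA. WBGene00195001 holds AACCCG on both sides of its TATA box. Sequences are from the RefSeq copy of the same assembly.
R07E5.16 (WBGene00014543), III, 10989579 to 10989678, plus strand: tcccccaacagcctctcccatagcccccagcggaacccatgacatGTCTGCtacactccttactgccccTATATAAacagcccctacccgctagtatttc
R07E5.16 (WBGene00014266), III, 4426956 to 4427055, minus strand: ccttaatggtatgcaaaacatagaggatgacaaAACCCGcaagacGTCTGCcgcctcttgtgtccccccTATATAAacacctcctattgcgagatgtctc
R07E5.16 (WBGene00014484), III, 4414085 to 4414184, plus strand: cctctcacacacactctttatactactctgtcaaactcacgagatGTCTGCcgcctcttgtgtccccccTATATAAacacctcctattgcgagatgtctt
F54D8.7 (WBGene00195000), III, 5080899 to 5080998, minus strand: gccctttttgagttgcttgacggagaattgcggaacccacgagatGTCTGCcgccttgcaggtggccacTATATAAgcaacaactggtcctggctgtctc
R07E5.16 (WBGene00235188), V, 858991 to 859090, plus strand: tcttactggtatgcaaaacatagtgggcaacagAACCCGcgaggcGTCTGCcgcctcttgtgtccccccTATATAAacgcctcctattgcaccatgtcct
No summit, F54D8.7 (WBGene00195001), IV, 4864736 to 4864835, minus strand: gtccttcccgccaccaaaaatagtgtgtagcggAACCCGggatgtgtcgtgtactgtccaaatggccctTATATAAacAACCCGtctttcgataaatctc
No summit, R07E5.16 (WBGene00014392), III, 9445811 to 9445910, plus strand: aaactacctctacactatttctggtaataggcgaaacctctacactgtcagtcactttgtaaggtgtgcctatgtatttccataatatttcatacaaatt
No summit, R07E5.16 (WBGene00014430), IV, 13435887 to 13435986, minus strand: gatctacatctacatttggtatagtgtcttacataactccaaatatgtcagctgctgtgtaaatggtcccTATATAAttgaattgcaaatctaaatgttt

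The strongest snRNA peak lay at WBGene00014543 (III, 10989679 to 10989780, plus strand), in an intron of the dynein heavy chain gene dhc-4. Its signal was 137.4 in the list of replicate 1 and 144.9 in that of replicate 2. In the conservative set it had a signal of 284.7, which ranked 60 of 675. The copy WBGene00014266 (III, 4426854 to 4426955, minus strand), in an intron of C28A5.6, had 72.3 in replicate 1 and 100.3 in replicate 2. The pair's peak there had 178.5 and ranked 153. WBGene00014484 (III, 4414185 to 4414286, plus strand), in an intron of mpc-1, a gene for a mitochondrial pyruvate carrier subunit, had 52.7 and 76.4, and 129 for the pair. F54D8.7 (WBGene00195000; III, 5080798 to 5080898, minus strand) lies between genes. It had 63.7 in replicate 1 and 71.4 in replicate 2, and 124.5 for the pair. These 4 U6 genes were the snRNA genes called in all 4 thresholded sets, and the replicates ordered them alike except that F54D8.7 was above WBGene00014484 in replicate 1 and below it in replicate 2.

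Another copy of the same sequence, WBGene00235188 (V, 859091 to 859192, plus strand), overlaps an annotated exon of K09C6.2. Its candidate had 27.5 in the list of replicate 1, where its score was 31, and 56.1 in the list of replicate 2, where its score was 1000. It was called in replicate 2 and in the other thresholded set of the pair, where its signal was 84.0. It missed the conservative set, since its score in the ranked list between replicates was 713. The lowest score in the thresholded sets was 830. The 2 replicates differed more at this copy than at any of the 4 copies above.

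The 14 genes of identical sequence thus ran from a signal of 284.7 to no candidate at all. Of these, 8 had a candidate in the ranked list between replicates, at signals of 22.8 to 284.7, and 6 had none. On chromosome III, 4 of 7 U6 genes were called, against 3.32% of all genes there (128 of 3859), and 5 had a candidate. On chromosome IV, none of 13 was called, against 0.624% of all genes there (123 of 19704). Of the 13, 3 had a candidate, the highest at 41.1 (WBGene00235247). The share of stretches of 36 bases that occur once in the genome, counted over the extended gene, had a median of 62.2% on III and 58.5% on IV. Over the 5 U6 genes in any thresholded set it was between 40.8% and 73.0%, and over the other 19 between 40.1% and 99.3%. Counted over the 100 upstream bases alone, it was 70.8% to 100% at the 5 and 0% to 100% at the 19. Of the uncalled copies shown above, WBGene00014392 had 41.5% there, WBGene00014430 had 30.8% and WBGene00195001 had 100%. Whether this share bears on the calls was not tested. On IV, 6 of the copies lie in introns of mam-3, and the upstream bases of each matched those of its closest copy at 94 to 97 of 100 positions.

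**Figure D2:**
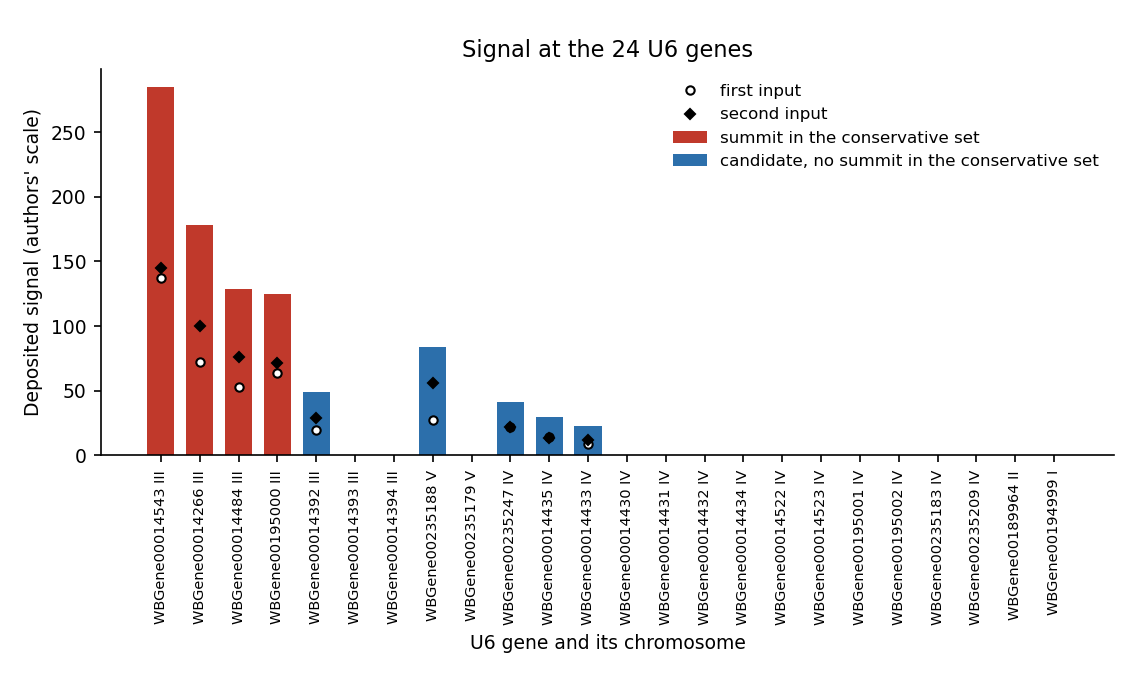
Signal at each of the 24 U6 genes (authors' scale), grouped by chromosome. Bars give the peak of the replicate pair, red where it is in the conservative set, open circles and filled diamonds give the 2 inputs of the ranking, and a gene with no bar had no candidate. The red bars all stand on III, from 124.5 to 284.7, the tallest bar on IV reaches 41.1, and WBGene00235188 on V was called in the other thresholded set.

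The element GTCTGC, searched after the values and the sequences had been seen, stood upstream of all 5 U6 genes called in any set and of none of the other 19. It began 55 bases before the gene start in each of the 5. Among all 46886 genes with a full window, 1.13% held it in the same 100 bases on the gene strand. The TATA box TATATAA was present at all 5 called U6 genes and at 10 of the other 19, against 2.43% of all windows, and it began 30 or 31 bases before the start. GTCTGC was also upstream of 10 of the 12 SL1 genes, where it began 45 bases before the start, and of 1 U5 gene and 1 gene of no class, none of which was called. The 10 SL1 genes are identical in sequence, and the highest unique share in that class was 11.4% over the extended gene. The treatment of reads with several positions is unknown, so their lack of a call cannot be weighed. Some of the called U6 copies share much of the 100 upstream bases. WBGene00235188 matched WBGene00014266 at 85 of 100 positions, and WBGene00014484 matched WBGene00014266 at 71, so the 5 genes are not independent examples of the element. WBGene00014543 matched its closest U6 copy, one that was not called, at 55 of 100.

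U1 had 3 called genes, and the upstream bases of each are shown with those of F40G12.14, a copy with no candidate, to let the shared elements be compared. Capitals mark AACCCG as well as TGTCGG, which were chosen after values had been seen.
sup-6 (WBGene00006315), II, 12944968 to 12945067, minus strand: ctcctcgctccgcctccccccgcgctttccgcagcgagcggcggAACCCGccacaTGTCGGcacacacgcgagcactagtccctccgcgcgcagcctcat
F08H9.11 (WBGene00014317), V, 14468734 to 14468833, minus strand: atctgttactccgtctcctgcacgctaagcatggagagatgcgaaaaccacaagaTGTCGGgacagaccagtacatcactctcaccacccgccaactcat
sup-39 (WBGene00006344), II, 6968559 to 6968658, minus strand: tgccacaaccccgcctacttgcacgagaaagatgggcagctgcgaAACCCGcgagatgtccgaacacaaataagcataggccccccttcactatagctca
No candidate, F40G12.14 (WBGene00014371), V, 14277474 to 14277573, plus strand: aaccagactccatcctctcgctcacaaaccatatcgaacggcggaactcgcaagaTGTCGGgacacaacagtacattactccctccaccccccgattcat

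sup-6 and sup-39 are U1 genes known from suppressor mutations that alter splice-site choice. sup-6 (II, 12944803 to 12944967, minus strand) lies in an intron of F58G1.7 and had a signal of 49.2 in replicate 1 and 43.2 in replicate 2, with 100.1 for the pair. F08H9.11 (V, 14468569 to 14468733, minus strand) lies between genes and had 39.5 and 44.4, with 91.1 for the pair. Both were called in the 2 sets of the pair and in neither replicate's own set. In the ranked lists of replicates 1 and 2, the scores were 682 and 318 at sup-6, but only 16 and 18 at F08H9.11. sup-39 (II, 6968394 to 6968558, minus strand), in an intron of C15F1.5, had 43.3 in replicate 1 and 42.7 in replicate 2. It carried a pair of entries in the conservative set, with signals of 59.9 and 39.1, and both list the same values for the 2 inputs, so they are 1 observation of the replicates. It was called in replicate 1 but not in replicate 2 or in the other set of the pair. Just below the threshold, the U1 gene C27H5.11 had a score of 775 and a signal of 72.7, and the overlapping annotations T27E4.12 and T27E4.22 shared a candidate with a score of 767 and a signal of 64.8.

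Of the 13 U1 genes, 10 had a candidate, the largest share of any class at 76.9%. The 10 include T27E4.12 and T27E4.22, which share 1 candidate. U1 and U2 are the longest classes, with median lengths of 165 and 187 bp, which leaves more room for a candidate. Of the 3 genes without one, T27E4.10 and T27E4.11 were the least unique of the class, with 28.3% and 31.3% of their stretches of 36 bases found once in the genome. The other gene without one was F40G12.14, shown above. Its share was close to that of F08H9.11, a called gene, at 59.7%.

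U4 had 1 called gene among 5, and it is 1 of 2 copies with the same sequence and the same name. The upstream bases of both are given because the copies differ there and in signal, with TGTCGG in capitals.
T11F9.15 (WBGene00014291), V, 11980018 to 11980117, plus strand: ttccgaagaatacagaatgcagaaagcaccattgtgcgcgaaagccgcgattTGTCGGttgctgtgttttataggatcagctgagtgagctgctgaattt
No candidate, T11F9.15 (WBGene00014517), V, 11478048 to 11478147, plus strand: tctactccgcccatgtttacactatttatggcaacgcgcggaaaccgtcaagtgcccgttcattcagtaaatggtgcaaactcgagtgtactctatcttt

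The called copy, WBGene00014291 (V, 11980118 to 11980261, plus strand), had a signal of 40.2 in replicate 1 and 55.8 in replicate 2, with 92.5 for the pair. It was called in replicate 2 and in both sets of the pair. The identical copy had no candidate, although the unique share was nearly the same at 62.8% for the called copy and 63.8% for the other. The called copy also stands next to snr-4, which codes for a protein of the Sm ring that assembles on snRNAs. Its summit lay at -403 bp from the snr-4 start, so this 1 peak counts for both genes. In all, 6 of the 11 summits lay in the promoter window of a protein-coding gene, from 1000 bp upstream to 200 bp downstream of a transcript start. The others were those at sls-2.4 (egg-5), F54D8.7 (cox-6A), F08H9.11 (clec-57 and srz-97) and both entries at sup-39 (eif-2Bgamma). These peaks cannot be assigned to the snRNA gene alone. The share of all 675 peaks in such windows is not given here, so whether 6 of 11 is usual cannot be told. Of the 3 other U4 genes, K03B8.10 had a candidate at 24.2.

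Among the SL2 RNA genes, sls-2.2 was called, and its RNA gene is shown with the spliced leader, the 22 bases that are transferred to mRNAs, in capitals.
sls-2.2 (WBGene00004834), II, 5543598 to 5543707, plus strand: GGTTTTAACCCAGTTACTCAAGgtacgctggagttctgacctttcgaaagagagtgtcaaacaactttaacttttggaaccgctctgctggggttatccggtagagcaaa

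The signal at sls-2.2 was 50.8 in replicate 1 and 58.5 in replicate 2, with 108.2 for the pair. The other called SL2 gene was sls-2.4, with 65.0 in replicate 1, 52.2 in replicate 2 and 125.2 for the pair. Both were called in replicate 1 and in both sets of the pair, and not in replicate 2. Both lie between genes. The next gene of the class, sls-2.1, had a score of 666 and a signal of 66.0, with 32.2 in replicate 1 and 33.2 in replicate 2. Of the 18 SL2 genes, 9 had a candidate, and the median of these was 41.7. The class was among the more unique ones, with a median of 84.3% of stretches of 36 bases found once.

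U2 had no call in any of the 4 thresholded sets. Of the 20 genes, 13 had a candidate (65.0%, exact interval 40.8% to 84.6%), the second largest share after U1, yet their signals reached only 52.5 and had a median of 36.8. The highest U2 candidate was at WBGene00014405, a copy named C47F8.9, with inputs of 27.6 and 22.6 and a score of 219. The median unique share of U2 over the extended gene was 37.4%, the lowest of the classes after SL1. It was 0.0% over the gene itself and 73.1% over the upstream bases. Over the extended gene, it was 45.7% for the 13 with a candidate and 33.0% for the 7 with none. Whether repeated sequence bears on the lack of U2 calls was not tested. The CACGCG sequence, a site known for HES proteins, was found on either strand within 100 bp of the start of 17 of the 20 U2 genes (85.0%), against 2.61% of all genes' windows of the same length. It was found at 1 of the 11 called snRNA genes, sup-6.

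The U2 gene Y54G9A.8, which had a candidate at 39.3 and was not called, shows this site in its upstream bases, here in capitals.
Y54G9A.8 (WBGene00014589), II, 13717754 to 13717853, minus strand: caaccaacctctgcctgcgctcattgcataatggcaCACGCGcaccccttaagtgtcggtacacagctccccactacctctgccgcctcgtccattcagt

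The strongest U5 candidate lay at F07C6.5 (WBGene00014306), in an intron of pin-2, with 27.2 in replicate 1, 31.1 in replicate 2 and 62.8 for the pair, at a score of 476. The next U5 gene, WBGene00014631, had 42.4. All 12 U5 genes had AACCCG upstream, beginning 56 to 60 bases before the start, and 5 had a candidate. The strongest SmY candidate was at smy-5, with a signal of 42.9 and a score of 131, and it was the only candidate among the 10 SmY genes. Those genes were nearly all unique in sequence, with a lowest share of 92.3%.

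The SL1 genes were almost wholly repeated sequence. Of the 12, 11 held no stretch of 36 bases that occurs once in the genome, counted over the gene and 100 bp on each side. The other, WBGene00077488, held 11.4%, and it was the one with a candidate, at a signal of 33.2 with inputs of 12.1 and 21.2. The treatment of reads with several possible positions is unknown, and the part that repeated sequence has in these counts was not tested. Over all members, the median unique share was 71.8% for the 11 called genes, 65.7% for the 43 with a candidate and no call, and 75.3% for the 75 with none. It was under 50% at 1 of the 11, 11 of the 43 and 20 of the 75. These groups mix classes that differ in uniqueness. In the same order, the medians were 71.8%, 67.0% and 31.3% within U1, and 62.8%, 67.3% and 70.6% within U4.

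**Figure D3:**
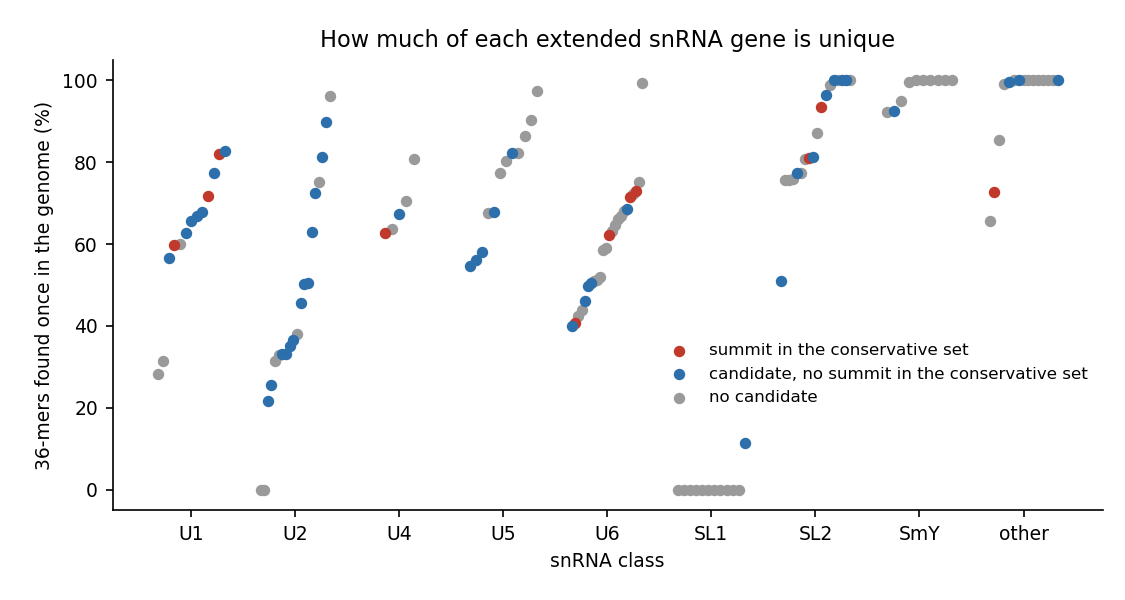
Share of stretches of 36 bases found once in the genome over each gene and 100 bp on each side (%), by class. Each point is 1 gene, red where called in the conservative set, blue where it had a candidate and no call, and grey where it had none. The SL1 genes lie at 0 but for 1, and the called U6 genes, from 40.8% to 73.0%, lie within the range of the others.

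Candidates in the ranked list between replicates, most of them weak, were found at 54 of the 129 snRNA genes. This was 41.9% (exact interval 33.2% to 50.9%), against 42.0% of all annotated genes, 69.4% of tRNA genes and 46.8% of snoRNA genes. Longer genes have more room for a candidate. Among the other genes no longer than the longest snRNA gene the share was 14.0%. That group has only an upper limit of length, so it is not matched to the snRNA genes in length. The 54 genes had a median signal of 40.2. The list held 57 candidates at snRNA genes out of 72151, and 41 of the 57 (71.9%) were higher in the second input, against 61.4% of all candidates. The median log2 ratio of the second input over the first was 0.16 at snRNA genes and 0.19 over the list.

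The 2 replicates called partly different snRNA genes. Replicate 1's own set reached 8 of the 129 snRNA genes (6.20%), against 1.12% of all genes, and replicate 2's own set reached 6 (4.65%), against 1.24%. The other set of the pair reached 10 (7.75%), against 1.77%. In all, 12 snRNA genes were called in at least 1 of the 4 sets, 10 in at least 1 replicate's own set and 4 in both replicates' sets. Those 4 were the U6 genes on III. Where the ranked list of each replicate held a candidate, which was so for 29 snRNA genes, the deposited signals are set side by side, although their scale and the depth of each library are unknown. Replicate 2 was higher at 23 of the 29 (79.3%), against 65.7% of all 11996 genes with a candidate in both lists. The overlapping annotations T27E4.12 and T27E4.22 share the same candidates, and both are counted in the 23 and the 29. Replicate 2 was higher at 7 of the 10 called snRNA genes, against 75.0% of all 816 called genes with such candidates. The log2 ratio of replicate 2 over replicate 1 had a median of 0.17 over those 10, against 0.25 over the 816 called genes. It was 0.12 over the other 19. Over all 29 snRNA genes it was 0.16, against 0.20 over all genes with such candidates. The 10 called genes had at least 39.5 in each replicate, and the other 19 had at most 56.1.

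**Figure D4:**
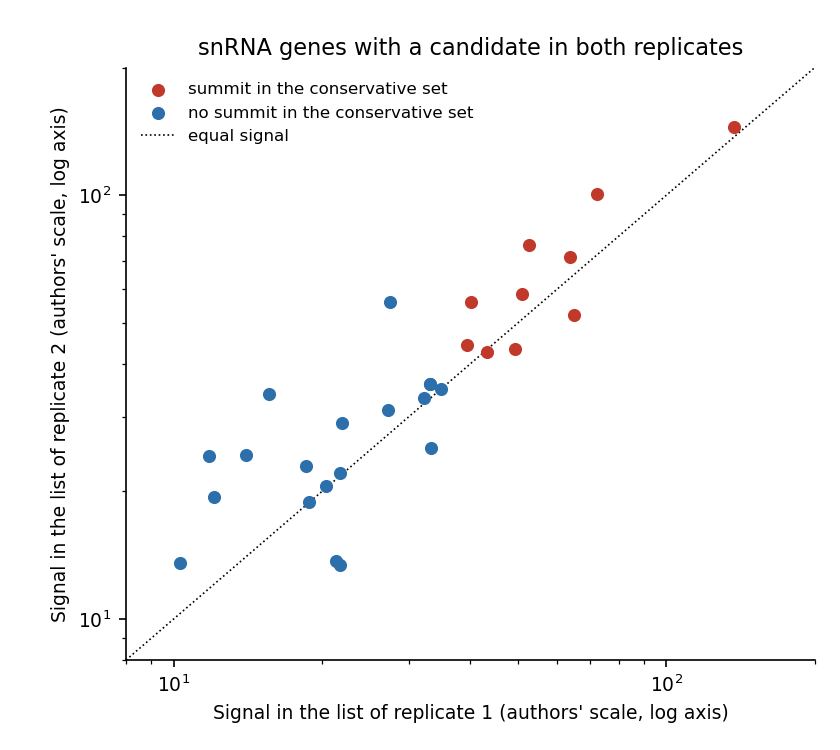
Signal in the list of replicate 2 against that of replicate 1 (authors' scale, both axes log) for the 29 snRNA genes with a candidate in both. Red points are genes with a summit in the conservative set, blue points are other genes, and the dotted line marks equal signal. The red points begin at 39.5 in replicate 1 and 42.7 in replicate 2, and the farthest is the U6 gene with 137.4 and 144.9.

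The summits lay close to the snRNA genes' starts in U6 and U4 and further in for SL2. Counting from 0 at the first base of the gene along its strand, the 11 summits had a median position of 16 bp and a range of -60 to 142 bp, and 7 were inside the gene. The U6 summits stood at -11, -3, 16 and 25 bp, and the U4 summit at 8 bp. Both SL2 summits lay near the 3′ end, at 82 bp in sls-2.4 and 85 bp in sls-2.2. The U1 summits were scattered, at -4 bp in F08H9.11, at 115 bp in sup-6 and at -60 and 142 bp in sup-39.

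These positions carry a wide error. At the 10 called genes with a candidate in both replicates, the summits of the replicates differed by 7 to 154 bp, with a median of 23 bp. F54D8.7, for example, had its summit at -3 bp in replicate 1 and at 57 bp in replicate 2, and sup-39 had -12 bp and 142 bp. Of the 11 peaks, 10 were 276 bp wide, the most common width of the set, with the summit at their centre, as in 576 of the 675 peaks. The narrowest was the strongest, at WBGene00014543, with a width of 171 bp. In the replicates' lists, the SL2 summits were at 80 to 100 bp, the U4 summits at -7 and -48 bp, and the summits of the 4 called U6 genes at -41 to 57 bp, so those of SL2 did not overlap those of U4 or U6. With 2 SL2 genes and 1 U4 gene this is a description of these copies.

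**Figure D5:**
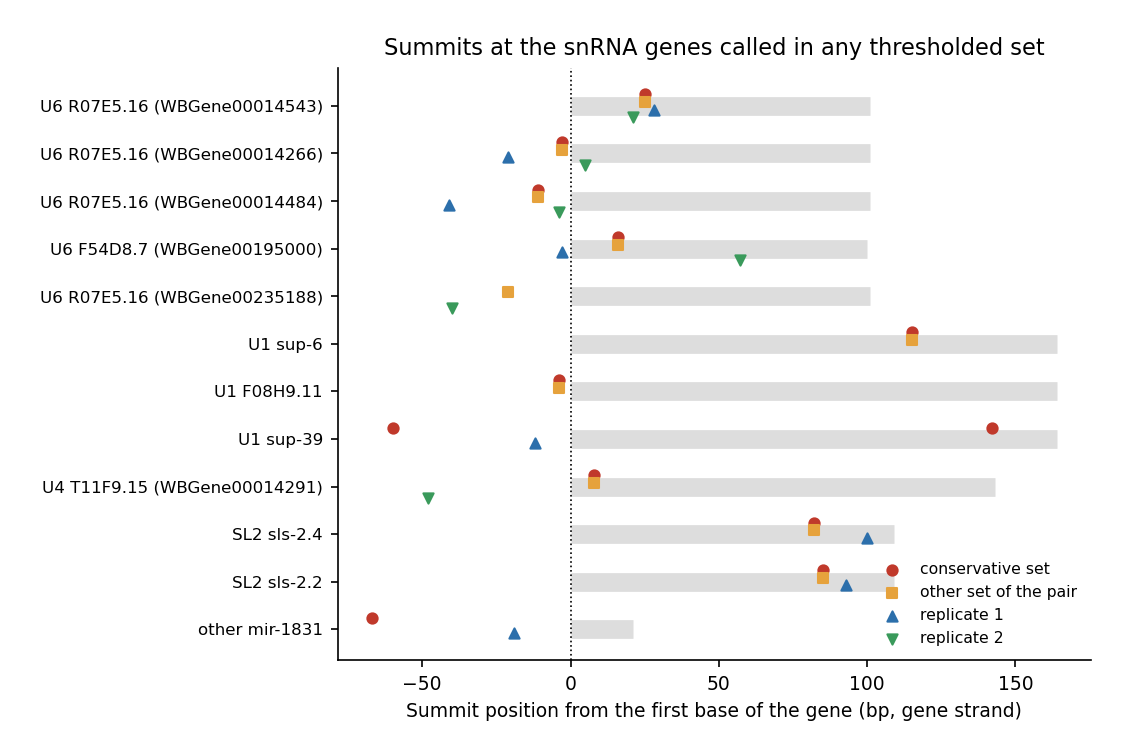
Position of each summit from the first base of the gene (bp, along the gene strand) for the 12 snRNA genes called in any thresholded set. Grey bars span the genes, the dotted line marks the start, and symbols give the conservative set, the other set of the pair, and replicates 1 and 2. The U6 and U4 symbols gather around the start, from -48 to 57 bp, and the SL2 symbols lie between 82 and 100 bp.

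Other features did not separate the called genes in a simple way. Of the 11, 6 lay in introns of protein-coding genes, all of them on the strand of the host, and 5 lay between genes. Over all 129 members, 55 lay in introns, 35 of them on the strand of the host, and 62 lay between genes. By chromosome, summits were placed at 4 of 13 snRNA genes on III, against 3.32% of all genes there, and at 4 of 16 on II, against 2.31%. They were placed at 1 of 16 on I, against 3.04%, and at 2 of 40 on V, against 1.59%. None was placed at the 41 on IV, against 0.624%, or at the 3 on X, against 3.52%. The share on IV was the lowest of the chromosomes, but IV has 19704 annotated genes, the most of any. Its 123 called genes compare with 121 to 128 on each of I, II, III and V, and 212 on X. The TGTCGG block was upstream of 4 of the 11 called genes and 38 of the other 118, against 1.13% of all genes, and AACCCG was upstream of 4 and 39, against 0.970%. Both elements were thus as frequent at uncalled snRNA genes as at called ones, to within a few percentage points, and far more frequent than over all genes. sup-39 and mir-1831, which lie at 1 place, are both counted among the 4 on II, the 6 in introns and the 4 with AACCCG.

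Motifs known for basic helix-loop-helix proteins, and the GC-rich sequence CCGCCC, were searched on both strands within 100 bp of the start. The sequence CACNAG, the N-box known for the HES family, was present at 7 of the 11 called genes and at 23 of the other 118, against 17.8% of all genes. The 7 include sup-39 and mir-1831, which share a window, and 3 of the 4 called U6 genes. Among U6 genes it was present at 4 of the 5 in any thresholded set and at none of the other 19. In 3 of these 4, WBGene00014484, WBGene00014266 and WBGene00235188, a match began at -44 bp in the stretch that the copies share. The remaining gene, F54D8.7 (WBGene00195000), had its match at -63 bp, where WBGene00014484 also had one. The 4 are therefore not independent examples. CANNTG, the E-box, was at 6 of the 11 and 44 of the 118, against 53.5% of all genes. Its form CACGTG, whose matches are also counted under CANNTG, was at none of the 11 and 1 of the 118, against 2.97%. CCGCCC was at 4 of the 11 and 17 of the 118, against 4.12%, and in U1 it was at 8 of 13. The 4 are the called U1 genes and mir-1831, which lies inside sup-39. These are matches of letters in a window and say nothing of occupancy.

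Genes for proteins that make, assemble or use snRNAs were examined as well. The list was drawn up with earlier results of these data known. Of 54 listed genes, 53 were found in the annotation, and 3 had a summit between 1000 bp upstream and 200 bp downstream of a transcript start. That was 5.66% (exact interval 1.18% to 15.7%), against 1.42% of all protein-coding genes. They were prp-19, which codes for a core protein of the spliceosome's Prp19 complex, snr-2, which codes for another Sm protein, and snr-4. The prp-19 peak had a signal of 109.6 and lay at -606 bp from the start. The snr-2 peak had 76.1 and lay at -387 bp. The snr-4 peak was the U4 peak described above, with 92.5. The strongest candidate with no call was at snr-1, with 94.0, and snr-1 was called in replicate 2 and in the other set of the pair. The gene snr-2 was called in neither of these nor in replicate 1, and snr-4 was not called in replicate 1. The gene prp-19 was called in all 4 sets. No summit was placed in the promoter window of any of the listed genes of SNAPc, the SMN complex or the Integrator complex. These are few genes, and only 1.42% of all protein-coding genes were called, so this absence is no result about these complexes.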

How the data were processed

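ChIP-seq peaks from 2 replicates of 1 group were analysed. The authors deposited peak lists on ce11, made from filtered alignments and a control file, with a further file of unstated content for the thresholded sets, per the accompanying notes. No aligner, peak caller or depth is named there or in the labels. Of the deposited values, the score (up to 1000), the signal (scale not stated) and the −log10 of the global irreproducible discovery rate (IDR) were used, per the file headers and formats. Thresholded peaks had a score of at least 830. The 2 inputs of the ranked list between replicates carry no replicate number, so values given by replicate come from each replicate's own lists.

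Classes were set by gene name, then by a conserved element (U1 CTTACCT near the 5′ end, U2 GTAGTA, U5 CCTTTTA, U6 ACAGAGA), then by 80% identity to a classed copy. This placed 40 genes by name, 64 by these elements, 5 by a U4 element and 5 by identity. The order of these steps, the U4 element GCTTTGC and the identity limit were added after the files were seen, as were the 4 upstream elements. Sequences were read from the RefSeq assembly. Uniqueness is the share of 36-base stretches found once on both strands of the genome. Genes named are those with a summit in any thresholded set, the strongest candidate of each class with none, and listed protein genes with a promoter summit. Genes given as just below the threshold, or as uncalled copies for comparison, were chosen after their values were seen. The members and lists were chosen with earlier results of these data known. No test was run, since 1 group has no contrast. Functions were tested on simulated data. Tools were Python 3.11.15 with numpy 2.4.6, pandas 2.3.3, scipy 1.17.1, Biopython 1.88 and matplotlib 3.10.9. Alternatives comprised the other set, a stricter IDR, each replicate's own set, other windows and left-out entries.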

Additional observations from a re-analysis of the deposited data

How the results depend on the processing

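The count of 11 called genes kept within 1.5 times under the other set, wider windows, interval overlap and left-out neighbours or overlapping annotations (10 to 13). At a global IDR of at most 0.001, 4 genes with 4 summits in 1 class were left, all U6, and the median position was 6.5 bp and the median signal 153.8. With no window around the gene, 7 genes with 7 summits were left, at a median position of 82 bp, and 25 genes had a candidate in place of 54. Without replicate 1 or replicate 2, the called genes numbered 6 to 8, the summits 6 to 7, the classes 2 to 4 in place of 5 (counting the genes of no class as 1), the candidates 43 to 47 and the protein genes 1 to 3. The median position was then -3 to 0.5 bp and the median signal 63.7 to 73.9, on lists whose signal scale is lower. The median position was 12 bp and the median signal 116.4 with the other set and with windows of 250 or 500 bp, and with entries overlapping a stronger entry left out they were 20.5 bp and 116.4. The cause of these shifts was not tested, beyond the fewer peaks that a stricter limit and single replicates hold. sup-39 and mir-1831 were lost in the other set. The 4 U6 genes on III were called in each replicate, and 2 of them were lost with no window. No paired analysis was possible because there is 1 group. Depth is unknown, so a gene with no summit is not shown to be unbound.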
